A study of Caenorhabditis elegans with 2 samples.

Results

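Small nuclear RNA (snRNA) genes encode the RNAs at the core of the spliceosome, the machine that removes introns from pre-mRNA. All 111 nuclear genes that the Ensembl annotation of the C. elegans genome calls snRNA were followed here, with the 18 genes of the SL2 spliced leader left out by name, among 46890 nuclear genes in all. For each gene the strongest region with its summit within 200 bp of the gene was taken from the pooled list and from the list of each replicate. The place of that summit was measured from the gene's 5' end. The lists hold background as well as peaks, so a region far from the top is not in itself evidence of binding. Biotype and name, not a measured value, decided which genes were included, though the set was chosen with earlier results of these data known.

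The regions come from anti-GFP chromatin immunoprecipitation and sequencing (ChIP-seq) of the product of B0310.2, tagged with GFP and FLAG. The strain, OP642, carries unc-119(tm4063) III and the transgene wgIs642, so both samples share that background and the tagged protein is a transgene product. The worms were early embryos of mixed sex, at 0 h after eggs were synchronised by bleaching, in 2 biological replicates of a single group. A region list holds no expression values, so the stage could not be checked against marker genes, and there is no untagged or other condition to compare with.

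U1 snRNA pairs with the 5' splice site of an intron and U2 snRNA with the branch point, while U4, U5 and U6 join as a tri-snRNP, after which U6 releases U4 and helps to form the catalytic centre. In animals, U6 genes are read by RNA polymerase III and the other spliceosomal snRNA genes by RNA polymerase II, from short promoters with a proximal element bound by the SNAP complex, to which U6 promoters add a TATA box. C. elegans also splices short leaders onto many mRNAs in trans: SL1 RNA donates the common leader, and SmY RNAs are small RNAs linked to that reaction.

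The annotation gives none of these genes a U number, so types were read from the DNA of each gene. A gene was called U1-type if TTACCTG lay in its first 14 bases, U2-type if GCTTCTT lay in its first 14, U4-type if AGCTTTG lay in its first 10, U5-type if TGGTTCC lay in its first 16, and U6-type if it held TTAGCAT and was at most 110 bp long. By these words 12 genes were U1-type, 20 U2-type, 5 U4-type, 12 U5-type and 24 U6-type, 73 in all. A further 10 genes bear the SmY name, 14 are SL1-type by name or by CAAGTTT in the first 25 bases, and 2 lie inside or across a U1-type gene on the same strand. The remaining 12 genes matched no type. The 73 genes are called spliceosomal by these short words alone. Over the first 60 bases, the median match to the type's best-ranked member was 56 bases for U1-type genes and 60 for each other type. The lowest match was 16 bases among U6-type and 17 among U5-type genes, so some genes may be distant copies or wrongly typed. The 36 SmY, SL1-type and unmatched genes are described apart from the 73.

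Upstream sequences of the genes with a peak, from 90 bases upstream to the base before the gene, are printed first because the strongest members share words there; sup-6 is shown from 68 bases upstream. They were read from the RefSeq genome of assembly WBcel235 (ce11) on the strand of the gene, 5' to 3'. Capitals mark matches to GCGNAACCC and to TATATAA.
W05B2.8: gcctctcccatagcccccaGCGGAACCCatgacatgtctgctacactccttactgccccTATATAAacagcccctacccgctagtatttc
F54D8.7: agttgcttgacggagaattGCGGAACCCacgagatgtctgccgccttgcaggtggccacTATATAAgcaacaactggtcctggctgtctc
C28A5.7: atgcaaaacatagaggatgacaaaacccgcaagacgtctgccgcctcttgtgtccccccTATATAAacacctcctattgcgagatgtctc
sup-6: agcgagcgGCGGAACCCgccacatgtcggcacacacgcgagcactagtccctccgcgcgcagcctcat
sup-39: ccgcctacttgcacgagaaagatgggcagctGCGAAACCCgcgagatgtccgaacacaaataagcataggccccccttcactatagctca
T08G5.11: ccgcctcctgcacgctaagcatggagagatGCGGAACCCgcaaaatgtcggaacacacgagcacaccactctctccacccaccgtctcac
F38E11.10: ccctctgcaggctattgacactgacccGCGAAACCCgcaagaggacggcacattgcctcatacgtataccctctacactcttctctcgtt
C52E4.8: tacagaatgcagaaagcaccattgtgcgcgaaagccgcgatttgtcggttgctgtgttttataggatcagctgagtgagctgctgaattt
The first 3 are U6-type, the next 3 U1-type, F38E11.10 is U5-type and C52E4.8 is U4-type. In ce11 the windows are chrIII:10989589-10989678 (plus strand) for W05B2.8, chrIII:5080899-5080988 (minus) for F54D8.7, chrIII:4426956-4427045 (minus) for C28A5.7 and chrII:12944968-12945035 (minus) for sup-6. The others are chrII:6968559-6968648 (minus) for sup-39, chrV:14028636-14028725 (minus) for T08G5.11, chrIV:9444552-9444641 (plus) for F38E11.10 and chrV:11980028-11980117 (plus) for C52E4.8. Sequence in common was not confined to 1 type: U1-type and U5-type genes share GCGNAACCC with U6-type genes, and C52E4.8 has neither word.

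The authors' list of peaks that passed the threshold on the irreproducible discovery rate (IDR, which asks how well a region's rank repeats between replicates) held the 642 strongest of the 30000 pooled regions. It placed a peak within 200 bp of 9 of the 111 snRNA genes, or 8.11%, against a background of 2.02% of all nuclear genes. That background includes 15363 piRNA genes, of which 0.0456% had a peak, and 19973 protein-coding genes, of which 2.0% had one. The 9 genes stand for 8 separate peaks, because mir-1831, a 22 bp gene with a microRNA name but the biotype snRNA, lies inside sup-39 and took the same region. The 8 loci were all of spliceosomal type: 3 of 24 U6-type genes, 3 of 12 U1-type, 1 of 5 U4-type, 1 of 12 U5-type and 0 of 20 U2-type. None of the 36 SmY, SL1-type and unmatched genes had a peak. With so few loci the order of the types was not tested.

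The strongest locus was W05B2.8, a 102 bp U6-type gene (WBGene00014543) in an intron of dhc-4, which encodes a dynein heavy chain, on the same strand. Its region ranked 40 in the pooled list with a signal of 433, 43 in replicate 1 and 42 in replicate 2. The summit lay 140 bp from the gene's 5' end in the pooled list and 144 bp in each replicate, which is beyond the gene's 3' end by 39 bp in the pooled list. The region, chrIII:10989581-10990056, was the only pooled region with its summit within 200 bp of the gene, and the replicates placed their summits at the same base.

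The other U6-type peaks were at F54D8.7 (WBGene00195000) and C28A5.7 (WBGene00014266), also on chromosome III. F54D8.7 lies outside protein-coding genes and ranked 167 in the pooled list with a signal of 247, 476 in replicate 1 and 134 in replicate 2. Its summits were on the upstream side, at -16 bp in the pooled list, -33 bp in replicate 1 and -28 bp in replicate 2. C28A5.7 lies in an intron of C28A5.6 and ranked 258 in the pooled list with a signal of 206, 112 in replicate 1 and 350 in replicate 2. There the strongest summit changed sides between lists, at 191 bp in the pooled list, -35 bp in replicate 1 and 178 bp in replicate 2. The pooled list in fact held a second region at C28A5.7, of rank 342, with its summit at -34 bp.

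The U1-type peaks were at sup-6 (WBGene00006315), sup-39 (WBGene00006344) and T08G5.11 (WBGene00014511), each gene 165 bp long. Mutations of sup-6 and sup-39 are known in C. elegans as suppressors of other genes' mutations. The sup-6 gene, in an intron of F58G1.7, ranked 84 in the pooled list with a signal of 336, 168 in replicate 1 and 60 in replicate 2. Its strongest summit lay at 178 bp in the pooled list, at 207 bp in replicate 1 and at 41 bp in replicate 2, and a second pooled region of rank 129 had its summit at -23 bp. The sup-39 gene, in an intron of C15F1.5, ranked 313 in the pooled list with a signal of 189, 1128 in replicate 1 and 267 in replicate 2. Its summits fell at 179, 179 and 184 bp in those lists, and a second pooled region of rank 2106 again lay at -23 bp. T08G5.11, outside protein-coding genes, ranked 633 in the pooled list with a signal of 140.0, 1025 in replicate 1 and 999 in replicate 2, so neither replicate alone put it among its 642 strongest regions. Its summit lay at 128 bp in the pooled list, 129 bp in replicate 1 and -43 bp in replicate 2.

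The U4-type peak was at C52E4.8 (WBGene00014291) and the U5-type peak at F38E11.10 (WBGene00014366). C52E4.8 ranked 269 in the pooled list with a signal of 203, 699 in replicate 1 and 239 in replicate 2, with summits at 128, 124 and 128 bp inside its 144 bp. The same summit lay 523 bp upstream of the 5' end of snr-4, which encodes a core Sm protein of the snRNPs. The region, chrV:11980008-11980483, does not reach that 5' end, and which gene it belongs to cannot be told from its position. F38E11.10 ranked 627 in the pooled list with a signal of 141, 2974 in replicate 1 and 429 in replicate 2. It was thus near the end of the peak list, and its summits at 175, 258 and 134 bp were spread more widely than at C52E4.8.

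**Figure D1:**
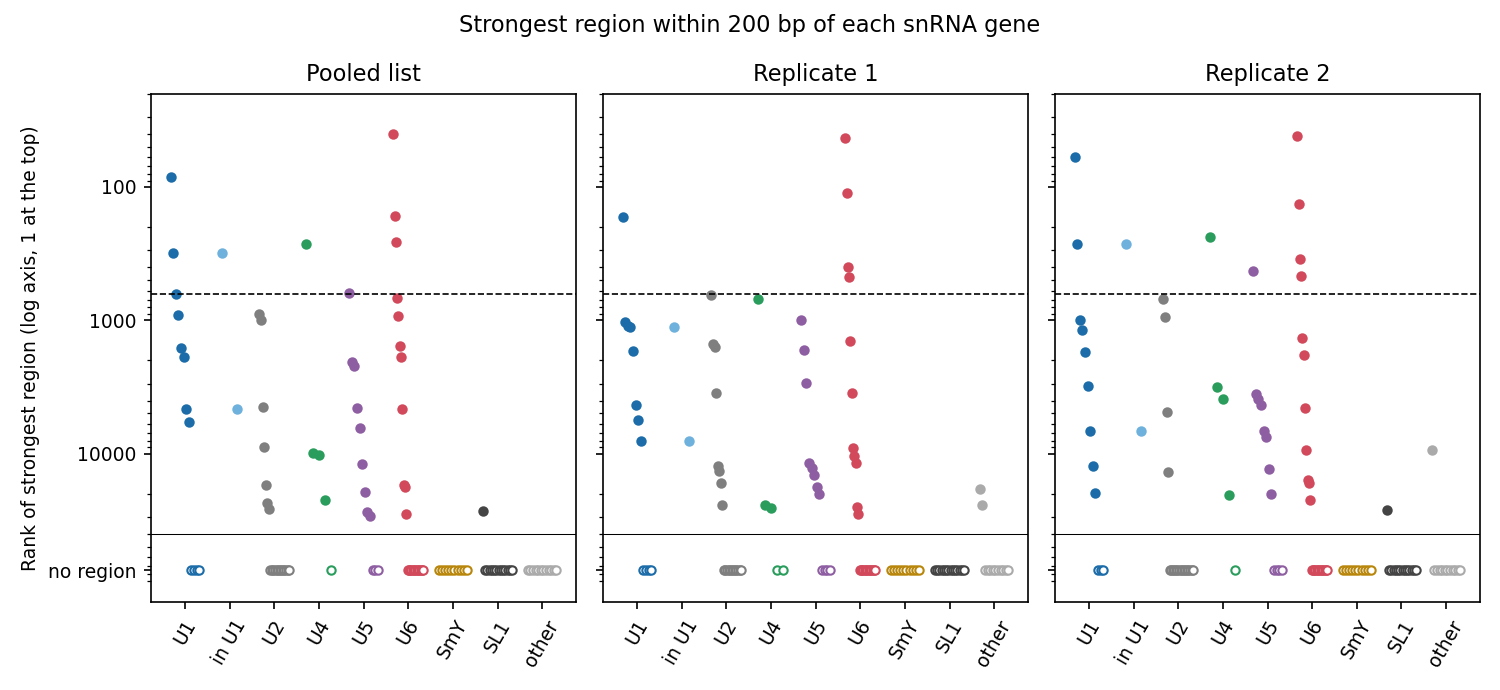
Rank of the strongest region within 200 bp of each of the 111 snRNA genes, on a log axis with rank 1 at the top, by RNA type, in the pooled list and in each replicate; open points are genes with no region and the dashed line is rank 642. Pooled peaks lie in the U1, U4, U5 and U6 columns and, for mir-1831, in the column of genes nested in U1-type genes. U2-type genes start at rank 893 in the pooled list, and the 10 SmY genes have no region in any of the lists.

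The peak list ends at a signal of 139.6, between T08G5.11 and the U6-type gene R07E5.16, which ranked 682 with a signal of 137. R07E5.16 ranked 468 in replicate 2 but 9062 in replicate 1, with its strongest summit at -38 bp in the former and 205 bp in the latter. Below it came F08G2.11, the best U2-type gene, of rank 893 in the pooled list, 648 in replicate 1 and 696 in replicate 2. The U1-type gene H27M09.6 followed at rank 914, the U6-type gene F54C8.9 at 932 and the U2-type gene Y57G11C.35 at 1005. The U6-type gene Y17G9A.85 at 1549 was unequal between replicates, with rank 401 in replicate 1 and 9349 in replicate 2. The U1-type genes T27E4.11 and F08H9.10 ranked 1603 and 1877, the U6-type gene B0205.15 ranked 1893, and the U5-type gene ZK897.4 ranked 2056.

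In the 2000 strongest pooled regions the count rose to 18 genes, or 16.2%, and 2 U2-type genes were then among them. The share was 4.46% of all nuclear genes, 6.07% of protein-coding genes and 0.111% of piRNA genes. A region of any rank was found at 42 genes, or 37.8%, against a background of 30.2%, a share closer to the background than at the top of the list. That background includes 15363 piRNA genes, of which 2.69% had a region. The share was higher than 37.8% for protein-coding (50.7%), tRNA (61.9%), SL2 (61.1%) and snoRNA genes (41.9%). It was lower for miRNA genes (33.0%) and rRNA genes (0.0%). By type, any region was found at 4 of 5 U4-type genes, 9 of 12 U5-type, 8 of 12 U1-type, 11 of 24 U6-type and 7 of 20 U2-type. The remaining 69 genes had no pooled region, and 59 had none in any of the lists. Since the lists hold background too, these counts of regions of any rank are not counts of bound genes.

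The replicates differed in how many snRNA genes they put at the top. Among its own 642 strongest regions, replicate 1 had 5 of the genes, against 1.9% of all nuclear genes, and replicate 2 had 9, against 1.94%. The 4 genes within the top 642 of the pooled list and of both replicates were W05B2.8, sup-6, F54D8.7 and C28A5.7. C52E4.8, sup-39 and F38E11.10 were in the top 642 of replicate 2 and not of replicate 1. Depth is unknown, since the lists hold no read counts, and its part in this difference was not tested.

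Summits lay more to the 3' side of the gene than to its promoter side in the pooled list. Of the 8 loci with a peak, 5 had the pooled summit downstream of the gene, 2 inside it and 1 upstream, with a median of 157.5 bp from the 5' end. That position depends on the list and on the choice of summit: over the 9 genes with a peak, counting mir-1831, the median was 172 bp, and it turned to -23 bp with the summit nearest the 5' end. Without replicate 2, over the genes in the top 642 of replicate 1, it was 39 bp. Of the 5 loci in replicate 1's own top 642, 2 summits were downstream, 1 inside and 2 upstream, and of the 8 in replicate 2's, 4 were downstream, 2 inside and 2 upstream. Over the 17 loci of the pooled top 2000, 8 summits were downstream, 4 inside and 5 upstream. The distance between the replicates' strongest summits had a median of 64.5 bp at the 8 loci with a peak, ranging from 0 to 213 bp, and was within 50 bp at 4 of them.

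Many loci in fact had a pooled summit on each side of the 5' end. Within 300 bp of the gene, 4 of the 8 loci with a peak had a pooled summit upstream of the 5' end as well as one beyond it, namely sup-6, C28A5.7, sup-39 and T08G5.11. The paired summits were 201 to 225 bp apart. The same held for 10 of the 17 loci of the pooled top 2000, with the paired summits 201 to 265 bp apart and a median of 223 bp. The weaker summit of a pair ranked from 129 at sup-6 to 20317 at B0205.15. It was also far down the list at Y57G11C.35 (9688), Y17G9A.85 (7940) and F08H9.10 (5394). The share of other genes with paired summits was not counted, so these counts have no background here. At R07E5.16 the upstream summit was the stronger, rank 682 at -43 bp against rank 2821 at 207 bp. At F08G2.11 the sides were nearly equal, rank 893 at -30 bp and rank 930 at 235 bp. At such loci the strongest summit of one list can lie on the other side of the gene in another list, as it did at C28A5.7, R07E5.16 and F08G2.11. The strongest region of each of the 9 genes with a peak was 476 bp wide, which is the most common region width and not particular to these genes. Paired regions of that width overlap at these spacings. Similar spacings occurred on a single side of the 5' end. Pooled summits lay at 140 and 348 bp at W05B2.8 and at 128 and 330 bp at C52E4.8. Whether paired summits mark separate bound sites was not tested.

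**Figure D2:**
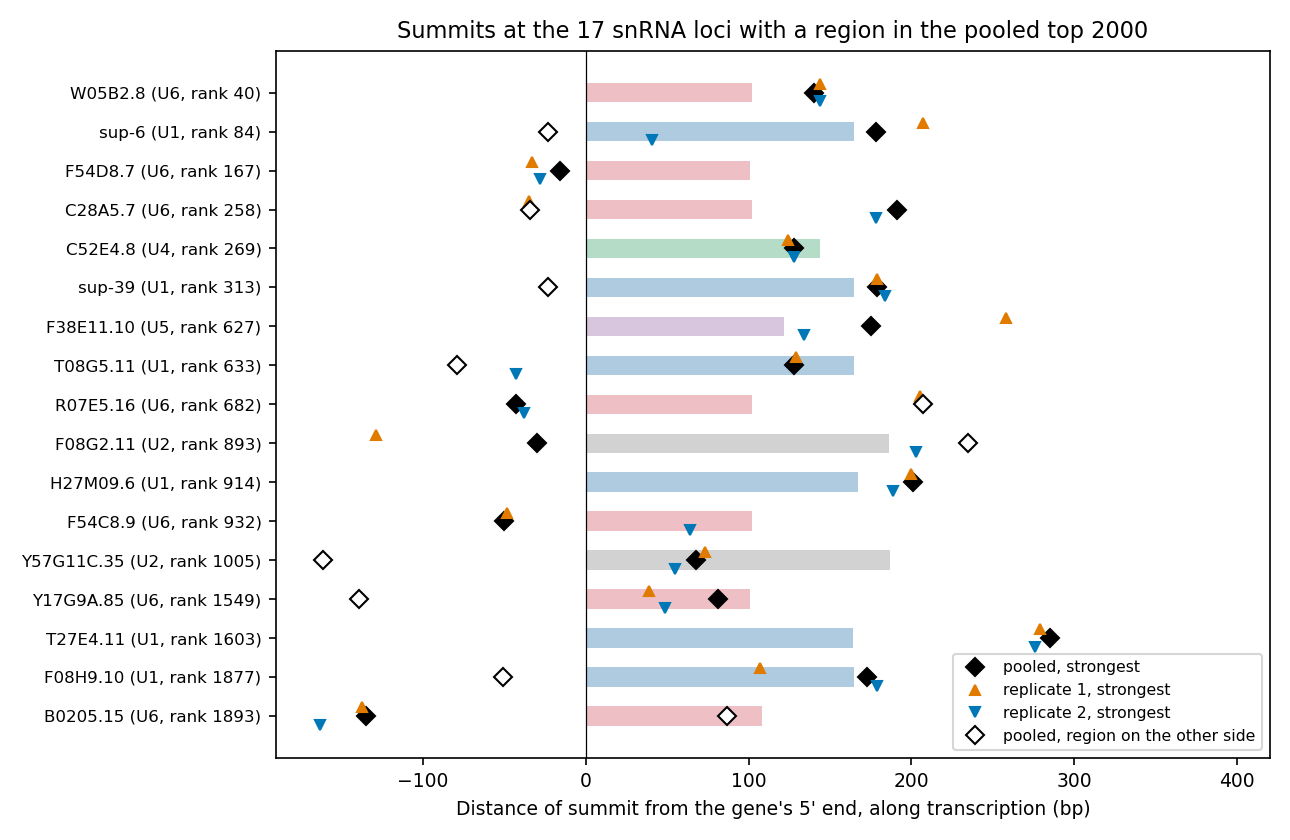
Distance of summits from the 5' end, in bp along transcription, at the 17 snRNA loci with a region in the pooled top 2000, where bars are the genes drawn to length, filled diamonds the strongest pooled summit, open diamonds the strongest pooled summit on the other side of the 5' end, and triangles the strongest summit of each replicate. At W05B2.8 all summits lie just past the gene, while at C28A5.7 and R07E5.16 the replicates fall on opposite sides of it.

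Many U2-type and U6-type genes have copies identical to them: 9 of 20 U2-type and 17 of 24 U6-type genes do, and 0 of 12 U1-type genes. The uniqueness of the sequence was measured as the share of 32-base words that occur once in the 6 nuclear chromosomes. Over the 73 genes of spliceosomal type the median share was 1.49% within the gene and 95.3% in the 200 bp on each side. For U6-type genes the share of members with a unique word fell to 4.17% within the first 60 bp, and it was 70.8% at 100 bp upstream and 95.8% at 250 bp downstream of the 5' end. How reads matching several places were handled is not given in the sources used here. The part of uniqueness in the position of the summits was not tested.

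**Figure D3:**
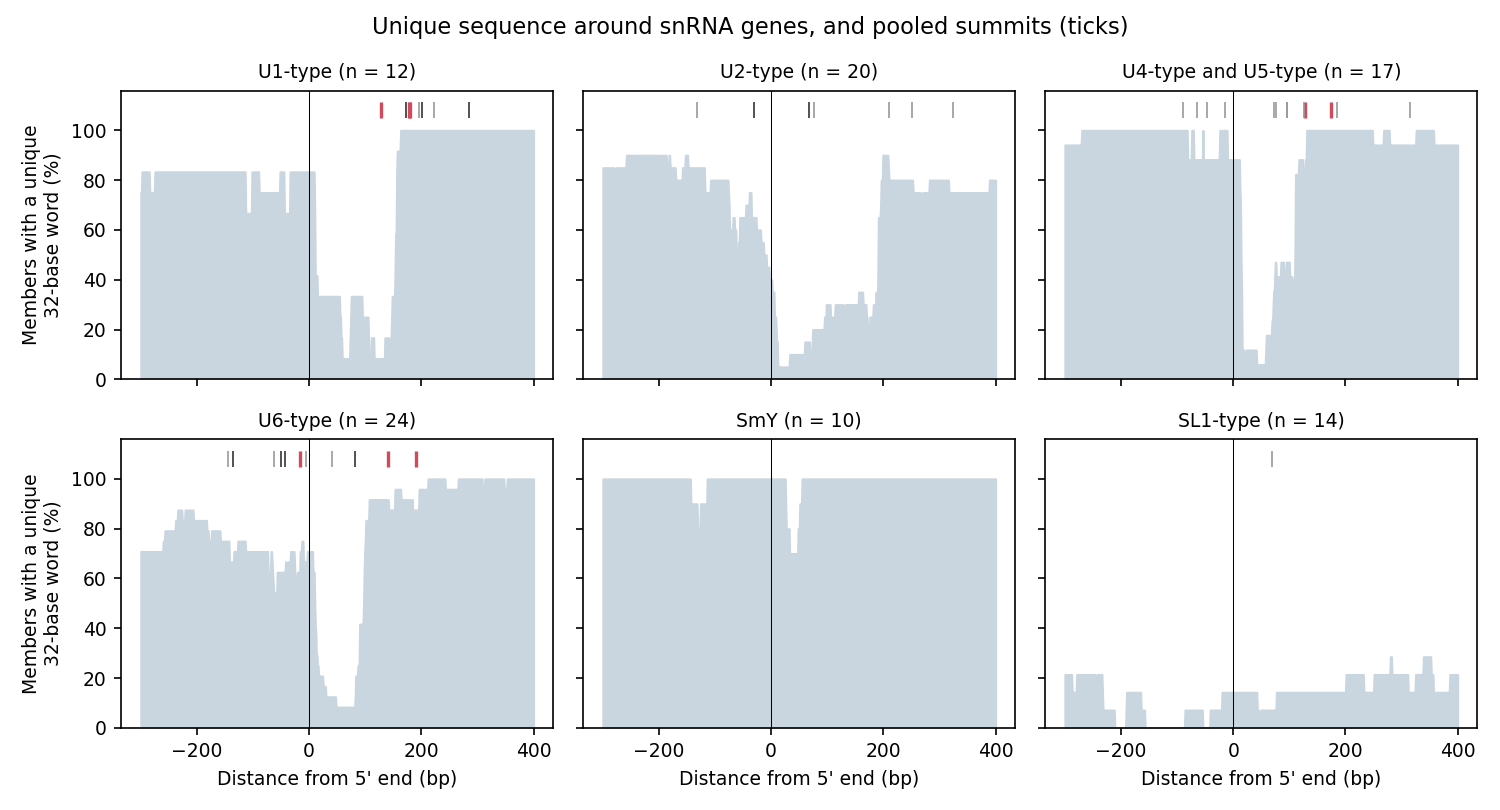
Percentage of members with a unique 32-base word at each distance from the 5' end, in bp, for 6 groups of snRNA genes, with ticks at the top for pooled summits (red for the IDR peaks, dark grey for other regions of the pooled top 2000, light grey for weaker ones). The gene bodies of the U types form a trough with unique sequence on both sides, SmY genes stay at 70.0% or above over the first 60 bp, and SL1-type genes have little unique sequence anywhere in the window.

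Genes that give the same RNA differed widely in rank. The largest identical set was 14 U6-type genes of 102 bp, of which W05B2.8 and C28A5.7 had a peak, 7 had some region and 7 had none. Their ranks ran from 40 for W05B2.8 to 17646 for F54C8.8. The genes without a region include all 6 of the U6-type cluster K09B11.11 to K09B11.16 on chromosome IV, whose flanks were 49.1% to 83.1% unique. Another identical set of 3 U6-type genes, 101 bp long, spread from rank 167 at F54D8.7 through 1549 at Y17G9A.85 to 28121 at T08B6.62, each with flanks that were 100% unique. In the largest identical U2-type set, of 7 genes, 4 had a region, the best of rank 4504, and 3 had none.

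The 10 SmY genes of the set had no region within 200 bp in the pooled list or in either replicate. Of all nuclear genes, 30.2% had a pooled region. Some SmY genes are neighbours, such as smy-4, smy-5 and smy-6 on chromosome V. Their flanks were 95.0% to 100% unique and the median SmY gene was unique throughout, and the part of uniqueness was not tested. The nearest pooled summit was 311 bp away for smy-1, with a median of 1518.5 bp over the 10 genes. The summit beside smy-1 belongs to an IDR peak of rank 614, and it lies within smy-2, an SmY gene that the annotation counts as a snoRNA and that is therefore outside the set. At smy-2, a 72 bp gene (chrIV:9511395-9511466, minus strand), the summit lay 14 bp from the 5' end in the pooled list, with rank 3289 in replicate 1 and 581 in replicate 2; this gene was named after its value was seen. Another SmY gene annotated as a snoRNA, smy-3, had no region in any of the lists.

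Of the 14 SL1-type genes 13 had no region in any list. The 12 with an sls-1 name lie on chromosome V with gene bodies that held no unique word, and the flanks of the 14 had a median of 0% unique words. For those 12, absence of a region and absence of sequence that reads can be placed in cannot be told apart. The SL1-type gene with a region, F20D1.21 on the X chromosome, had a pooled region of rank 26712 and flanks that were 59.5% unique. F35B3.10, also on the X chromosome, had no region in any list, with a gene that was 95.9% unique and flanks that were 63.6% unique. None of the 12 unmatched genes had a pooled region, against 30.2% of all nuclear genes, and the flanks of the 12 were 91.4% to 100% unique. In name order the first 5 members without a pooled region are B0213.21, B0213.22, B0213.23, B0213.24 and C05G6.4, of which B0213.23 had a region of rank 9428 in replicate 2 and the other four had none in either replicate.

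Words in the 150 bases upstream differed in frequency between the types. Among 101 distinct windows of the members, the most frequent 9-base word was GCGGAACCC, in 25 windows, and with any base allowed at 1 inner position it was GCGNAACCC, in 35. On the strand of the gene GCGNAACCC was found upstream of 36 members, or 32.4%, and no member was added when either strand was searched. On either strand it was upstream of 0.286% of all nuclear genes and of 33.3% of the SL2 genes. Because the word was picked as the most frequent among the members, its higher share in them than in all genes is partly fixed by that choice. It was upstream of 6.65% of snoRNA genes and of 0 of 612 tRNA genes. The word began 57 to 75 bases upstream of the member's 5' end, and in 23 of the 36 it was followed after 6 bases by TGTC. By type it was found at 11 of 12 U5-type genes, 8 of 12 U1-type, 8 of 10 SmY, 2 of 5 U4-type, 5 of 24 U6-type and 0 of 20 U2-type. TATATAA, which does not overlap it, was set by hand and not taken from that word count. TATATAA was found at 15 of 24 U6-type genes, always beginning 30 or 31 bases upstream, and on either strand upstream of 4.85% of all nuclear genes.

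Of the 36 members with GCGNAACCC upstream 7 had a peak and 24 a region of any rank, while of the 75 members without it 2 had a peak and 18 a region. The 7 include both sup-39 and mir-1831, which share 1 region. Over all nuclear genes, 14.3% of the 112 with the word had a peak and 54.5% any region, against 1.99% and 30.2% without it. The 112 include the 36 members, 6 SL2 genes and 23 snoRNA genes, classes in which peaks were more frequent than over all genes. Among the 47 genes of other classes with the word, 3 had a peak (6.38%) and 40.4% any region, against 1.88% and 30.1% without it. The part of gene class in these shares was not tested. Among U6-type genes, all 5 with the word had a region and 2 had a peak, and of the 19 without it 6 had a region and 1, C28A5.7, had a peak. Flank uniqueness moved with the word: the median was 100% for the 5 U6-type genes with it and 83.1% for the 19 without, and its part in these counts was not tested. The SmY genes, of which 8 of 10 carry the word with no region, show that the word is found without a region as well. Among snoRNA genes 5 of 23 with the word had a peak, against 52 of 323 without it, and among SL2 genes the counts went the other way, with 1 of 6 against 4 of 12.
The range among members with no peak is shown by a U2-type gene, a gene of the K09B11 cluster and an SmY gene, with the same capitals, build and orientation (chrIV:14765035-14765124, chrIV:13435887-13435976 and chrV:14094700-14094789, all on the minus strand).
Y57G11C.35: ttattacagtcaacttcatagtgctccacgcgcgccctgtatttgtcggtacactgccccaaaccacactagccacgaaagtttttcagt
K09B11.11: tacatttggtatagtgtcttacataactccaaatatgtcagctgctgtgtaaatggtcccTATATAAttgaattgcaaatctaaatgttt
smy-4: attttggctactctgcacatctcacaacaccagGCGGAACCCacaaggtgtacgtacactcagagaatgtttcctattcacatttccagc
The U2-type gene has neither word, the K09B11 gene has TATATAA alone, and smy-4 has GCGGAACCC with no region within 200 bp.

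In the pooled list, the share of snRNA genes with a peak lay below those of tRNA, SL2 and snoRNA genes. It lay above those of 261 miRNA genes, at 6.13%, and of 15363 piRNA genes, at 0.0456%. An IDR peak was found within 200 bp of 28.6% of 612 tRNA genes, 27.8% of 18 SL2 genes and 16.5% of 346 snoRNA genes, against 8.11% of the 111 snRNA genes and 11% of the 73 of spliceosomal type. In replicate 1 the share of snRNA genes was 4.5% and that of snoRNA genes 16.2%, and in replicate 2 the shares were 8.11% and 16.8%. The miRNA share was 6.51% in each replicate, so in replicate 1 it was above that of the snRNA genes. Of the snoRNA genes with a peak 48 of 57 had the summit upstream, and of the tRNA genes 113 of 175 had it inside, whereas 5 of the 8 snRNA loci and 3 of the 5 SL2 genes had it downstream. Uniqueness of the gene differed as well, with a median of 100% for snoRNA genes, 84.7% for SL2 genes, 11.6% for the snRNA genes and 0% for tRNA genes, and its part in these shares was not tested. No test of the difference between classes was made, since neighbouring genes can share a region.

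**Figure D4:**
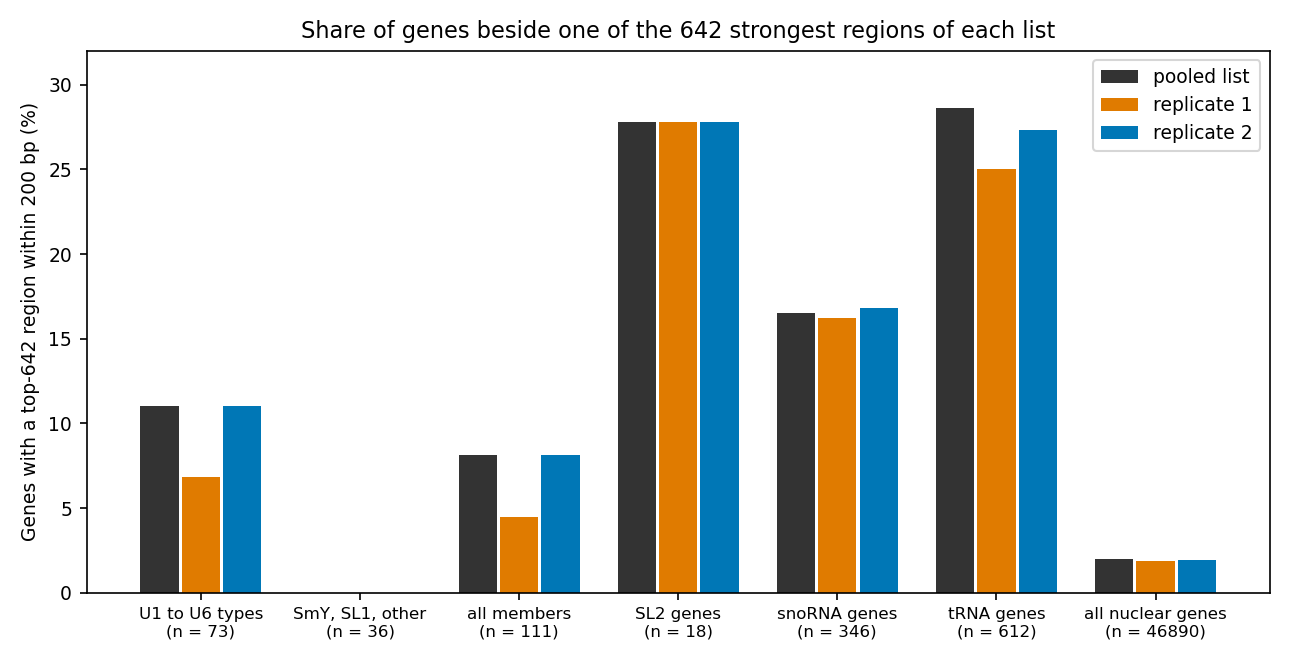
Percentage of genes with 1 of the 642 strongest regions within 200 bp, for the snRNA genes and other classes, in the pooled list and in each replicate; the number of genes is under each group. The 73 genes of spliceosomal type stand at 11% in the pooled list and at 6.85% in replicate 1, above all nuclear genes and below the snoRNA, tRNA and SL2 genes.

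Many snRNA genes lie within larger genes. Of the 111 members 56 were inside the span of a protein-coding gene, and 49 of those touched no protein-coding exon. Of the 9 members with a peak 5 were inside such a gene, and none of these touched an exon. At 5 of the 9 the summit also lay in a protein-coding promoter, taken as 1000 bp upstream to 300 bp downstream of a transcript's 5' end. These were cox-6A for F54D8.7 at -810 bp, snr-4 for C52E4.8 at -523 bp, eif-2Bgamma for sup-39 and mir-1831 at -731 bp, and F38E11.9 for F38E11.10 at -777 bp. The sup-39 and mir-1831 genes took the same region, which is counted for each of them. The share of all peaks with a summit in such a promoter was not counted, so the count of 5 has no background here. Genes annotated as other non-coding RNA also lay within 200 bp of the strongest pooled summit at sup-6, C28A5.7, C52E4.8, sup-39, F38E11.10 and T08G5.11. Their share over all peaks was not counted. Which of the neighbouring genes a region belongs to cannot be told from its position.

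Genes for the proteins that bind, make and assemble snRNPs were examined in the same lists. Of 64 such genes found by name, 3 had an IDR peak in the promoter, taken in the same way, or 4.69%, against 1.85% of 19973 protein-coding genes. All 3 were among the 43 genes of snRNP and spliceosome proteins, and 0 of 19 genes for snRNA transcription and 3' end formation and 0 of 2 for snRNP assembly had one. The snr-1 gene, which encodes a core Sm protein, had a summit 417 bp upstream of its 5' end, of rank 85 in the pooled list, 113 in replicate 1 and 64 in replicate 2, and the nearest small RNA gene was 5229 bp away. The peak of snr-4 is that of C52E4.8. The peak of prp-19, which encodes a spliceosomal ubiquitin ligase, lay 617 bp upstream and ranked 468 in the pooled list, 696 in replicate 1 and 514 in replicate 2.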

How the data were processed

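The data were ChIP-seq region lists of 2 replicates. Per the file headers and the deposited descriptions, the authors made each list of 30000 regions from a replicate's alignment, or both pooled, with a control. The caller, the aligner and the limit on IDR were not given in the sources used here. The authors' lists give a signal, whose scale is not stated and which was used to rank regions within a list, a −log10 q-value, not used further, and the summit, another deposited position. The ce11 lists were used and the ce10 lists were not. Genes came from Ensembl release 115, names from RefSeq through the gene ID (111 of 111 matched), as 44 members share an Ensembl name with another. Distances were computed with Python 3.11.15, numpy and pandas, and checked on planted summits. The replicates' depth is unknown, and spread is shown by printing both. Named genes are every member with an IDR peak, the 10 next in rank, the best of each type, 5 without a region in name order, and listed protein genes with a promoter peak; other named genes were chosen after their values were seen. The members and lists were chosen with earlier results of these data known. Alternatives were other windows, rank limits, single replicates and the 5' end.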

Additional observations from a re-analysis of the deposited data

How the results depend on the processing

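Of the alternatives to the count of 9 snRNA genes with a peak, 18 genes were counted with the 2000 strongest regions and 4 when the region had to be in the top of the pooled list and of each replicate. Leaving out a replicate gave 5 to 9 genes. Windows of 100 and 500 bp gave 8 and 10, the distance to the 5' end 9, the stronger part of the peaks 7, overlap of the region with the gene 9, and summits with no other class of small RNA gene nearby 9. Alternatives chosen after seeing the data gave 7 with flanks at least 90% unique, 8 with overlapping genes as 1 locus and 8 for the spliceosomal types. The count of 42 genes with any region ran from 38 to 50 over windows and from 40 to 42 over replicates. The median summit offset over the 9 genes was 172 bp, and it reversed to -23 bp with the summit nearest the 5' end, which by construction picks the upstream summit of a pair; it was 39 to 134 bp with 1 replicate left out. The count of 3 protein genes with a promoter peak fell to 1 with a promoter of 500 bp upstream to 100 bp downstream, which is shorter by construction, and was 1 to 3 with 1 replicate left out; the cause of the other shifts was not tested. No paired analysis was possible because there is a single group. Depth, the caller and the treatment of repeated reads are unknown, and 8 loci are too few to compare types.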
